A study of Mus musculus with 2 samples.

Results

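Total RNA from the gastrocnemius, a calf muscle, of female B6CASTF1/J mice aged 14 days was read for its long non-coding RNAs (lncRNAs) that are annotated as antisense to a coding gene or as sharing a bidirectional promoter with it. B6CASTF1/J mice are first-generation hybrids of C57BL/6J and CAST/EiJ. The series held 1 group of 2 libraries, replicates 1 and 2, each made from 300 ng of RNA with an ERCC spike mix labelled for stranded libraries with reduced ribosomal RNA. No treatment, genotype, age or tissue was compared. The labels mention 3 females for both libraries, but the biosample text of replicate 2 names a female in the singular, so whether each library is a pool is not clear, and the spread between the libraries may be technical in part.

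The set was chosen on annotation and on level. A gene entered if at least 1 of its transcripts had the biotype antisense or bidirectional promoter lncRNA, if no transcript was protein-coding or lincRNA, and if its deposited TPM (a level corrected for transcript length and scaled to a fixed sum per library) was at least 1 in both libraries. Kcnq1ot1, Gas5 and the Snhg genes were set aside beforehand, and none of them met the other terms. Of 3268 genes with these biotypes 120 entered, which is 3.67%, and 1930 of the 3268 had 0 counts in both libraries. By biotype the 120 were 102 antisense and 18 bidirectional promoter genes. Only 30 of them carry a given name, since 90 have a clone or Riken-type identifier. Since TPM chose them, their levels are a description. Just inside the limit lay Dnm3os with 1.15 and 1.00 TPM in replicates 1 and 2, AC110206.1 with 1.00 and 1.03 TPM, and Gm48226 with 1.00 and 1.19 TPM. Just outside lay Hotairm1 with 0.99 and 1.12 TPM, Ccdc142os with 1.14 and 0.99 TPM, and A630072M18Rik with 1.00 and 0.97 TPM.

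An antisense lncRNA is transcribed from the strand opposite a coding gene and runs through or beside its body. A bidirectional promoter lncRNA starts close to the start of a coding gene and is transcribed away from it. Some antisense RNAs are known to act on the gene they overlap, the textbook case being Airn, which silences the paternal Igf2r allele. Many others have no known function. Skeletal muscle is dominated by mRNAs of the contractile apparatus, and several lncRNAs of the set lie beside such genes.

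The libraries held 35592003 and 42105856 gene counts in replicates 1 and 2. The RNA of the signal recognition particle (7SL) made up 26.1% and 25.4% of TPM. The 6 skeletal muscle markers (Acta1, Ckm, Myh4, Tnnt3, Mylpf and Ryr1) summed to 93573 and 98818 TPM, which fits the labelled tissue. The 3 fibro-adipogenic markers summed to 968 and 1397 TPM, the 3 endothelial markers to 150 and 142 TPM, and the 3 macrophage markers to 34.6 and 40.1 TPM. Of the 3 neuron markers 2 reached 1 TPM in both libraries, and of the 2 liver markers none did. Which cells the lncRNAs come from was not tested, and in bulk muscle fewer cells of a type and less RNA per cell cannot be told apart.

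Antisense and bidirectional lncRNAs were a small and mostly faint fraction of this muscle's RNA. Together they summed to 636 and 716 TPM in replicates 1 and 2, or 0.0645% and 0.0725% of all TPM, from 18449 and 25346 expected counts. Their median level was 2.19 TPM (quartiles 1.47 and 4.52), against 2.80 TPM over 156 lincRNA genes and 8.40 TPM over 11006 protein-coding genes that met the same limit. The highest lncRNA of the set averaged 87.4 TPM, against 6898 TPM for the highest lincRNA. Only 14 of the 120 averaged 10 TPM or more, 14 lay between 5 and 10 TPM, 41 between 2 and 5 TPM, and 51 under 2 TPM. Depth limits these values: the median summed count was 128, against 223 for the lincRNA genes and 1191 for the coding genes, and 21 lncRNAs had under 50 counts in all. The members were short, with a median length of 907 bases against 1211 bases for the lincRNA genes, and 17 of them had only transcripts of a single exon.

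**Figure D1:**
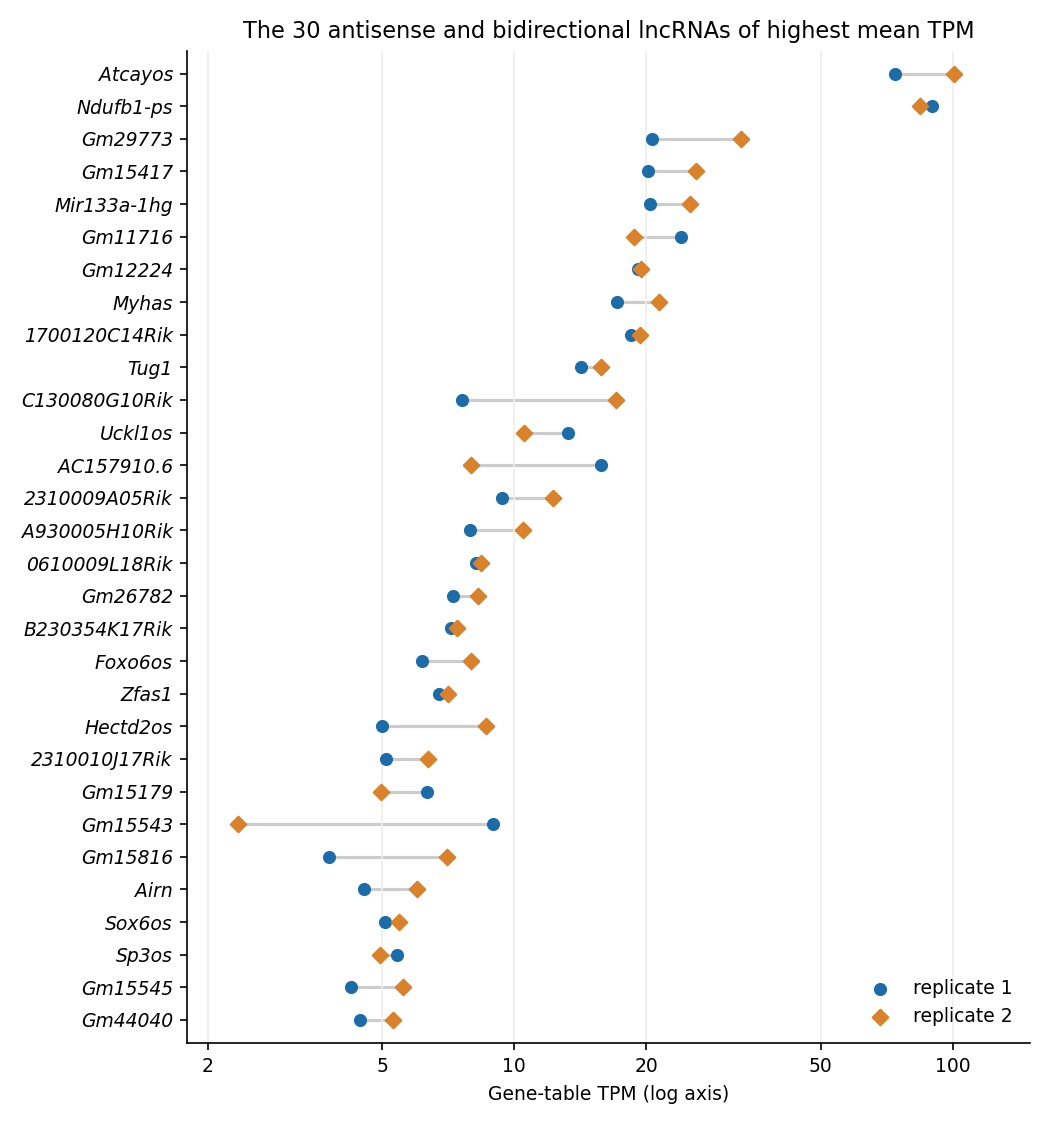
Gene-table TPM on a log axis for the 30 lncRNAs of highest mean TPM, with a circle for replicate 1 and a diamond for replicate 2, joined by a line. Atcayos and Ndufb1-ps stand above the rest near 87 TPM, and Gm15543, C130080G10Rik and AC157910.6 have the longest lines.

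The plot of levels by replicate shows a pair of genes set apart from the rest. Atcayos (antisense, chr10:81194609-81210877, plus strand, mm10) had 74.1 and 101 TPM in replicates 1 and 2, from 3393 and 5392 counts. Ndufb1-ps (bidirectional, chr12:101968090-101977068, minus strand), whose symbol names it a pseudogene of a subunit of respiratory complex I, had 89.96 and 84.18 TPM from 1111 and 1186 counts. Their order was therefore opposite in the 2 libraries. Together they held 25.8% of the set's summed TPM in each library. Below a gap came Gm29773 with 20.6 and 33.0 TPM, Gm15417 with 20.2 and 26.0 TPM, and Mir133a-1hg with 20.4 and 25.3 TPM. Gm11716 (24.1 and 18.7 TPM), Gm12224 (19.2 and 19.5 TPM), Myhas (17.2 and 21.4 TPM) and 1700120C14Rik (18.5 and 19.4 TPM) followed, and their deposited intervals overlap between neighbours in at least 1 library.

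Next came Tug1, a widely expressed lncRNA first described in retina, with 14.2 and 15.8 TPM, then C130080G10Rik with 7.61 and 17.0 TPM, Uckl1os with 13.3 and 10.6 TPM, and AC157910.6 with 15.8 and 7.97 TPM. The last 7 of the 20 highest lay between 6.16 and 12.3 TPM in either library. They were 2310009A05Rik, A930005H10Rik, 0610009L18Rik, Gm26782, B230354K17Rik, Foxo6os and Zfas1. Zfas1, a host of small nucleolar RNAs, had 6.76 and 7.08 TPM. Mir133a-1hg, the host of the muscle microRNAs Mir133a-1 and Mir1a-2, was counted on a model of 395 bases with 170 and 243 counts. It lies inside Mib1, a ubiquitin ligase gene of Notch signalling with 13.2 and 15.7 TPM, and stood above it in the gene table. The direct quantification, a second set of values from the same reads, turns this order, with 3.78 and 7.04 TPM for Mir133a-1hg against 17.4 and 19.9 TPM for Mib1.

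Several of these loci lie beside muscle genes. Atcayos runs antisense through Nmrk2, a muscle nicotinamide riboside kinase, and into the end of Atcay, a gene best known from neurons. Nmrk2 had 2.39 and 2.70 TPM, and Atcay 0 and 0.03 TPM with 0 and 3 counts, so Atcayos had the highest TPM of the 3 genes. Gm29773 overlaps the end of Nup133, a nuclear pore gene with 4.68 and 4.77 TPM, and starts 1522 bases upstream of Acta1, the skeletal muscle actin, which had 28140 and 30304 TPM on the opposite strand. Myhas overlaps the end of Myh1, the fast 2X myosin heavy chain with 2345 and 1767 TPM, and starts 456 bases upstream of Myh4, the fast 2B heavy chain with 11567 and 12204 TPM. C130080G10Rik starts 787 bases from the start of Actc1, the cardiac actin that young skeletal muscle also makes, with 2857 and 3515 TPM. Against these neighbours the lncRNAs were minor: Gm29773 stood at 0.0732% and 0.109% of Acta1, Myhas at 0.149% and 0.175% of Myh4, and C130080G10Rik at 0.266% and 0.485% of Actc1.

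Annotated starts of 3 of these lncRNAs are shown because Atcayos was 1 of the 2 highest in level and the others lie beside myosin and actin genes. In each case the start shown lies inside the gene body, downstream of the gene's outermost annotated start. The windows come from RefSeq on GRCm38.p6, run 5′ to 3′ on the lncRNA's strand from 250 bases before an annotated start to the 50 bases that begin with it, and cover chr10:81194441-81194740 (plus strand) for Atcayos, chr11:67237232-67237531 (minus strand) for Myhas and chr2:114054146-114054445 (plus strand) for C130080G10Rik. Capitals mark the motifs searched on both strands: the letters TATAAA for the core promoter element of that name, CCAAT for the element bound by NF-Y, GGGCGG for the GC box of Sp factors, CAGCTG for an E-box of muscle regulators, and CATTCC for the element of TEAD factors called M-CAT.
Atcayos: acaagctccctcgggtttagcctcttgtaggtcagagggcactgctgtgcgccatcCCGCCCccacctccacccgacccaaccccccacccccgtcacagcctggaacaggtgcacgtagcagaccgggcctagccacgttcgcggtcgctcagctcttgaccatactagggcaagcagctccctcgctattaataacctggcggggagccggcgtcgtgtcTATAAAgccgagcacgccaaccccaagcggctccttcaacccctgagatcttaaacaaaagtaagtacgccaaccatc
Myhas: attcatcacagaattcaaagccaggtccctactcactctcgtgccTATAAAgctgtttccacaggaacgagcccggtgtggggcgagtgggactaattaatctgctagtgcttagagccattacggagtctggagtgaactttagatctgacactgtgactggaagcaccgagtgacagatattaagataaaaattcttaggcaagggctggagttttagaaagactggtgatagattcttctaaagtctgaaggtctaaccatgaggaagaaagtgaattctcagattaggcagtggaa
C130080G10Rik: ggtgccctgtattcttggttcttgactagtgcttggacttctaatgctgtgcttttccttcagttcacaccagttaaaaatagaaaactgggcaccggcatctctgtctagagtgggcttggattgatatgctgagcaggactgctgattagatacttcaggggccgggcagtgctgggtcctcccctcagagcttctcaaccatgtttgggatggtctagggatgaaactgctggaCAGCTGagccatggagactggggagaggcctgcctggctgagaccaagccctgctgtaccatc
Atcayos has TATAAA from 28 to 23 bases before the start shown, where a TATA box usually stands, and 1 GC box on the opposite strand. That TATAAA lies inside the gene body, which begins at chr10:81194609, so it is placed for this internal start only. The Myhas window has TATAAA only from 205 to 200 bases before the start shown. It does not reach the gene's outermost start, the one 456 bases from Myh4, so no motif was searched there. The C130080G10Rik window has neither TATAAA nor a GC box, but a CAGCTG from 13 to 8 bases before the start shown. This CAGCTG lies downstream of the gene's outermost start, the one 787 bases from Actc1. Each match is a match of letters, not a site shown to be used.

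Most of the set overlapped a coding gene on the other strand. In the GENCODE M21 annotation 105 of the 120 gene bodies overlapped an opposite-strand protein-coding gene, 13 did not but started within 1000 bases of a coding start and ran away from it (divergent), and 2 did neither. The last 2 were Foxo6os, which starts 4001 bases from Foxo6, and Gm43079. Of the 105, 41 overlapped the partner at their 5′ ends, 30 at their 3′ ends, 30 lay inside the partner and 4 enclosed it. The bidirectional promoter genes split evenly, with 9 of 18 overlapping and 9 divergent. Among the antisense genes 96 overlapped, 4 were divergent and 2 were neither. Of the lincRNA genes at the same limit, 17 of 156 overlapped and 26 were divergent. The biotypes are themselves given by such positions, so these counts describe the annotation and not the muscle. A further 16 overlapping lncRNAs also started within 1000 bases of another coding gene, and 18 overlapped more than 1 coding gene.

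Overlap of bodies need not be overlap of exons. In 37 of the 120 no exon base was shared with a coding gene's exons on the other strand, in 15 at least 50% of the exon bases were shared, and Gm11175, antisense to Jund, was covered completely. The strand setting of the authors' quantifier is not given in the sources used here, so whether reads of the coding gene were kept out by strand is not known for the 83 lncRNAs with exonic overlap. The deposited posterior standard deviation of the count, taken here as a sign of reads divided between genes where it is above 0, was 0 in both libraries for 76 of these 83 and for 110 of all 120. It exceeded 1% of the count in 5, namely Gm43079, 9330159M07Rik, Gm16008, Tmem147os and Hoxa11os, whose values are uncertain.

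The lncRNAs were mostly below their coding partners. Taking as partner the coding gene of greatest overlap, or else the divergent one, 118 pairs were formed with 117 partners. The lncRNA had the lower TPM in both libraries in 83 pairs and the higher in both in 31. The deposited intervals, whose level is not given, stood apart in both libraries with the lncRNA below in 75 pairs and above in 25, and overlapped in at least 1 library in 18. The same comparison for 43 lincRNA pairs put the lincRNA above in 20.9% and below in 74.4%. Over the 111 pairs with a partner above 0 in both libraries the median log2 ratio of lncRNA to partner TPM was −2.04, against −2.07 over 40 lincRNA pairs. With the 7 pairs whose partner was at 0 in a library placed at the top of the order, the median over 118 was −1.77. In 37 pairs the lncRNA stood under 10% of its partner in both libraries, and in 4 under 1%.

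**Figure D2:**
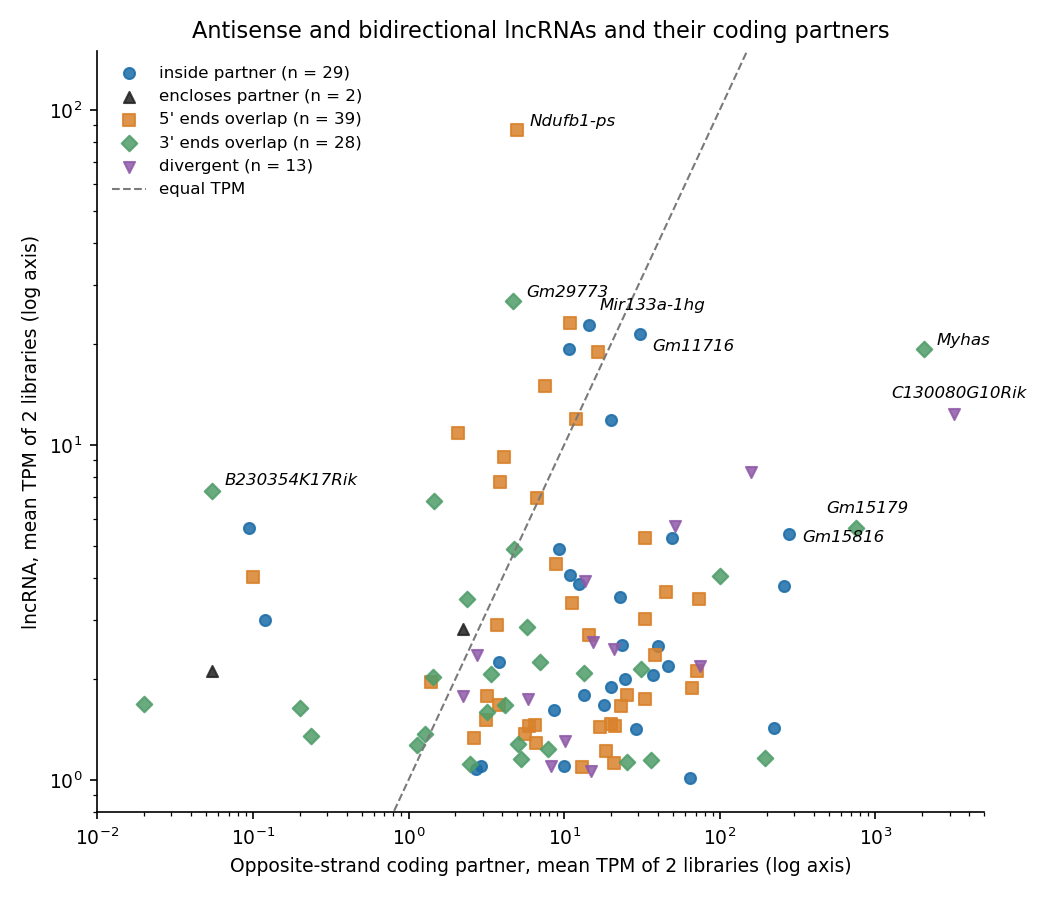
Mean TPM over 2 libraries of each lncRNA against that of its opposite-strand coding partner, both on log axes, for the 111 pairs with a partner above 0 in both libraries, with the position of the pair shown by colour and shape. Most points lie right of the dashed line of equal TPM, and no divergent pair lies left of it.

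As the plot of pairs shows, lncRNAs of like level had partners of widely differing level. Spearman's rho between their mean TPM was 0.117 over the 111 pairs, a description only, since all pairs share the libraries and only the lncRNA had to reach 1 TPM. Position went with the ratio in part. All 13 divergent lncRNAs had a mean TPM below that of their partner, 11 of them with intervals apart, at a median log2 ratio of −2.98. Those inside their partner had a median of −2.92 over 29 pairs, those overlapping at the 5′ ends −2.04 over 39 pairs, and those overlapping at the 3′ ends −1.09 over 28 pairs. The 18 bidirectional genes had a median of −3.14 and 93 antisense genes −1.71. These medians depend on which gene is taken as partner, and no test of their differences was made.

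The lowest ratios belonged to lncRNAs next to abundant muscle and housekeeping mRNAs. Every lncRNA had to reach 1 TPM while partners had no limit, so a very low ratio requires an abundant partner. C130080G10Rik came first, at a log2 ratio of −8.12 to Actc1. Next was 3110056K07Rik, with 1.13 and 1.2 TPM against 175 and 212 TPM for Psma3, a proteasome subunit gene (−7.37). It shares no exon base with Psma3 and starts 158 bases from another coding gene, Arid4a, with 3.66 and 4.08 TPM. Against Arid4a it stood at 30.9% and 29.4%, so its low ratio holds for the partner of greatest overlap only. D830024N08Rik had 1.35 and 1.5 TPM inside Tecr, an enzyme of very long-chain fatty acid synthesis with 197 and 246 TPM (−7.27). Gm15179 had 6.32 and 4.98 TPM and overlaps the last part of Des, the muscle intermediate filament desmin with 734 and 762 TPM (−7.06). It also starts 285 bases from Speg, a striated muscle kinase gene with 72.9 and 81.6 TPM. Myhas stood at −6.73 to Myh1.

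The highest ratios were to coding genes hardly transcribed in this muscle, so no fold is given. B230354K17Rik had 7.19 and 7.40 TPM beside Spats1 with 0.04 and 0.07 TPM, and 1810021B22Rik had 1.46 and 1.90 TPM beside Panx2, a pannexin, with 0.01 and 0.03 TPM. Gm16008 had 1.78 and 2.46 TPM around Tnfrsf18, a receptor of T cells, with 0.05 and 0.06 TPM. Each of these 3 partners had 1 count in replicate 1 and 2 counts in replicate 2. Hoxd3os1 had 3.89 and 4.19 TPM beside Hoxd3 with 0.16 and 0.04 TPM, and Gm15543 had 8.95 and 2.35 TPM inside Casc1 with 0.08 and 0.11 TPM. After these 5 came Gm26740, with 2.83 and 3.16 TPM inside Raet1e with 0.10 and 0.14 TPM. Ndufb1-ps was next, and its partner reached 1 TPM: it stood 19.4 and 15.6 times above Cpsf2, a subunit gene of the polyadenylation machinery with 4.64 and 5.38 TPM. These ratios hold for the partner of greatest overlap only. B230354K17Rik stood below Cdc5l, whose start it overlaps, with 15.3 and 16.5 TPM. Likewise 1810021B22Rik stood below Trabd, whose start it overlaps, with 9.51 and 11.5 TPM. Hoxd3os1 also overlaps Hoxd4, at 0.64 and 0.68 TPM, and Hoxd8, which stood above it at 15.9 and 14.6 TPM. Gm16008 and Gm15543 overlap no other opposite-strand coding gene.

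Partners at 0 in at least 1 library numbered 7. Gm11084 beside Sp3os, Trim43c beside 9330159M07Rik and Gapdhs beside Tmem147os were listed at 0 counts in both libraries. Atcay, Plet1, Rab26 and Kremen2 were at 0 counts in replicate 1 and at 3, 1, 4 and 2 counts in replicate 2. The lncRNA opposite Kremen2, 9530082P21Rik, had 1.10 and 1.29 TPM.

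The sense gene is given by the symbol for 22 of the lncRNAs, all of which end in os (opposite strand). In 18 the gene so named is overlapped and in 4 it starts upstream on the other strand, 3 of these within 1000 bases and Foxo6 at 4001 bases. The lncRNA was the higher of the pair in both libraries in 9, the lower in both in 12, and in 1, Uckl1os, the order differed between libraries. Intervals stood apart with the lncRNA above in 7 pairs and below in 10, and overlapped in 5. The median log2 ratio over the 19 pairs with a namesake above 0 in both libraries was −1.10.

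Of the 7 lncRNAs above their namesake, 2 face a namesake that reached 1 TPM in both libraries, Hectd2 and Foxo6. Hectd2os had 4.99 and 8.64 TPM against 1.23 and 1.68 TPM for Hectd2, a ubiquitin ligase gene. Foxo6os had 6.16 and 7.97 TPM against 3.76 and 5.67 TPM for Foxo6, a forkhead transcription factor. Brip1, at 45 and 69 counts, stayed under that limit. Brip1os had 2.43 and 3.23 TPM against 0.47 and 0.31 TPM for Brip1, a DNA repair helicase, whose start lies 177 bases away. The other 4, Atcayos, Hoxd3os1, Plet1os and Rab26os, face a namesake with at most 4 counts in either library. Hoxd3os1 lies in the Hoxd cluster of body-axis regulators, and its values are those given above. Plet1os had 3.60 and 2.88 TPM, and Rab26os 1.64 and 1.45 TPM.

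The 10 lncRNAs below their namesake included Dnm3os and Map2k3os, which are given further on with their sequences. Rab10os had 3.48 and 4.65 TPM against 96.7 and 103 TPM for Rab10, a GTPase of vesicle transport. Tmem147os had 1.94 and 2.09 TPM against 111 and 108 TPM for Tmem147, whose start is 39 bases away. Sox6os had 5.09 and 5.46 TPM inside Sox6, a regulator of fibre type with 44.7 and 54.0 TPM. Proscos had 1.17 and 1.07 TPM against 20.7 and 21.2 TPM for Plpbp, of which Prosc is an older symbol. Junos had 1.43 and 1.01 TPM against 18.8 and 18.4 TPM for Jun, an immediate-early transcription factor. Sp3os had 5.40 and 4.94 TPM against 12.5 and 14.0 TPM for Sp3, a factor that binds GC boxes. N4bp2os had 1.10 and 1.82 TPM against 5.93 and 7.02 TPM for N4bp2, and Zbtb11os1 had 1.11 and 1.92 TPM against 3.24 and 3.02 TPM for Zbtb11.

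In 5 pairs the intervals overlapped in at least 1 library, so neither RNA stood above the other beyond that error. Uckl1os had 13.3 and 10.6 TPM against 9.75 and 14.1 TPM for Uckl1, a uridine-cytidine kinase gene. Zfp335os had 2.84 and 2.98 TPM against 3.27 and 4.11 TPM for Zfp335, and Frmd8os had 1.96 and 2.17 TPM against 3.03 and 3.77 TPM for Frmd8. Hoxa11os, known as a partner of Hoxa11 in limb and uterus, had 1.62 and 2.30 TPM against 0.86 and 1.94 TPM for Hoxa11. Tnfsf13os had 1.43 and 1.11 TPM against 0.54 and 0.61 TPM for Tnfsf13, a cytokine gene. Its counts were 19 and 17 only.

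Dnm3os, an RNA known from skeletal development, lies inside Dnm3 (dynamin 3) at chr1:162217623-162225550 on the plus strand. It had 1.15 and 1.00 TPM from 127 and 208 counts, against 2.99 and 2.42 TPM for Dnm3, and is the host of 2 microRNA genes, Mir199a-2 and Mir214. The mature microRNAs are shown because they are the known products of the locus, with the seed (bases 2 to 8) in capitals, from RefSeq on GRCm38.p6. They are encoded at chr1:162217844-162217866, chr1:162217883-162217904, chr1:162223397-162223418 and chr1:162223438-162223459.
mmu-miR-199a-5p: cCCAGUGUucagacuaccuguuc
mmu-miR-199a-3p: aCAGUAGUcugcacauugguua
mmu-miR-214-5p: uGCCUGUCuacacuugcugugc
mmu-miR-214-3p: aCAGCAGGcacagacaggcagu
The 4 seeds differ from each other. Libraries of this kind measure the host, and the mature microRNAs were not measured. In replicate 1 the transcripts Dnm3os-206 and Dnm3os-202 had nearly equal shares of the gene, 47.0% and 46.9%. They had 6.01 and 118.7 counts there, since Dnm3os-206 is a short model of 494 bases. In replicate 2 Dnm3os-202 led with 60.8%. The direct quantification gave Dnm3os-206 0 TPM in both libraries, so no change of leading transcript is read from these shares.

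Starts of divergent pairs are given for 3 lncRNAs to show the stretch from the start of the coding partner through the first 50 bases of the lncRNA. The first 2 are bidirectional promoter genes and Map2k3os is an antisense gene. They are 0610009L18Rik (chr11:120348543-120348727, plus strand), 136 bases from the start of Actg1, a cytoplasmic actin; 2610306M01Rik (chr6:86849391-86849516, minus strand), 77 bases from Aak1, a kinase of endocytosis; and Map2k3os (chr11:60931818-60932032, minus strand), 166 bases from Map2k3, a kinase upstream of p38. Each stretch is the part of the RefSeq window (GRCm38.p6) that holds no exon of a coding gene, on the lncRNA's strand, and capitals mark the same motifs.
0610009L18Rik: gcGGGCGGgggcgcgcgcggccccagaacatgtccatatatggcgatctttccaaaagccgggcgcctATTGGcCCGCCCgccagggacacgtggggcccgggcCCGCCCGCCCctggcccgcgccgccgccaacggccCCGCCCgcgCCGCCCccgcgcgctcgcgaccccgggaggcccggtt
2610306M01Rik: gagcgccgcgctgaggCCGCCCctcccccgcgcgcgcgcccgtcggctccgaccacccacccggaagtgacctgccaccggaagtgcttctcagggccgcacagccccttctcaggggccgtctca
Map2k3os: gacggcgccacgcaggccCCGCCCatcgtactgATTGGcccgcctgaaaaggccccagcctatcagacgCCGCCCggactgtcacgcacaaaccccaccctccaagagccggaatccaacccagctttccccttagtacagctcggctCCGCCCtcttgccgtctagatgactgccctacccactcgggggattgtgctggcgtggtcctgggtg
None of these stretches holds TATAAA. The 185 bases at 0610009L18Rik are 80.0% G and C with 31 CpG dinucleotides and hold 6 GC boxes, 2 of which overlap by 2 bases, and 1 CCAAT. The GC boxes from 4 to 9 and from 13 to 18 bases after its start lie inside the lncRNA. The stretch at 2610306M01Rik is 75.4% G and C with 1 GC box, and that at Map2k3os is 65.1% G and C with 3 GC boxes and 1 CCAAT. All 3 lncRNAs stood below their partner in both libraries. The lncRNA 0610009L18Rik had 8.20 and 8.40 TPM against 125 and 191 TPM for Actg1. At the kinase genes, 2610306M01Rik had 3.39 and 4.44 TPM against 12.3 and 15.0 TPM for Aak1. Map2k3os had 1.94 and 2.43 TPM against 79.6 and 70.3 TPM for Map2k3.

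RefSeq promoter windows of 300 bases were found by symbol for 76 of the 120, of which 70 start within 500 bases of an annotated start of the lncRNA. Their median G and C content was 58.5%, against 52.7% over all 32851 windows and 57.0% over 20150 windows of coding genes. The ratio of observed to expected CpG, which is low where CpG has been lost from the genome, had a median of 0.704, against 0.384 over all windows and 0.588 over coding ones. It was above 0.6 in 42 of 70 (60.0%), against 35.8% of all windows and 49.1% of coding ones. Among bidirectional promoter genes 12 of 14 (85.7%) were above 0.6. Of lncRNAs divergent from their partner or overlapping it at the 5′ ends, 25 of 37 were above 0.6. Of those inside it or overlapping at the 3′ ends, 17 of 30 were. Position here is relative to the partner of greatest overlap, and several of the 30 start near another coding gene. Examples above 0.6 are B230354K17Rik, 139 bases from Cdc5l, 5430405H02Rik, 165 bases from Rab5if, and Gm16062, 64 bases from Flcn. The classes thus do not separate starts at a coding promoter from other starts. The windows often hold the promoter of a coding gene as well, so the composition belongs to the pair.

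**Figure D3:**
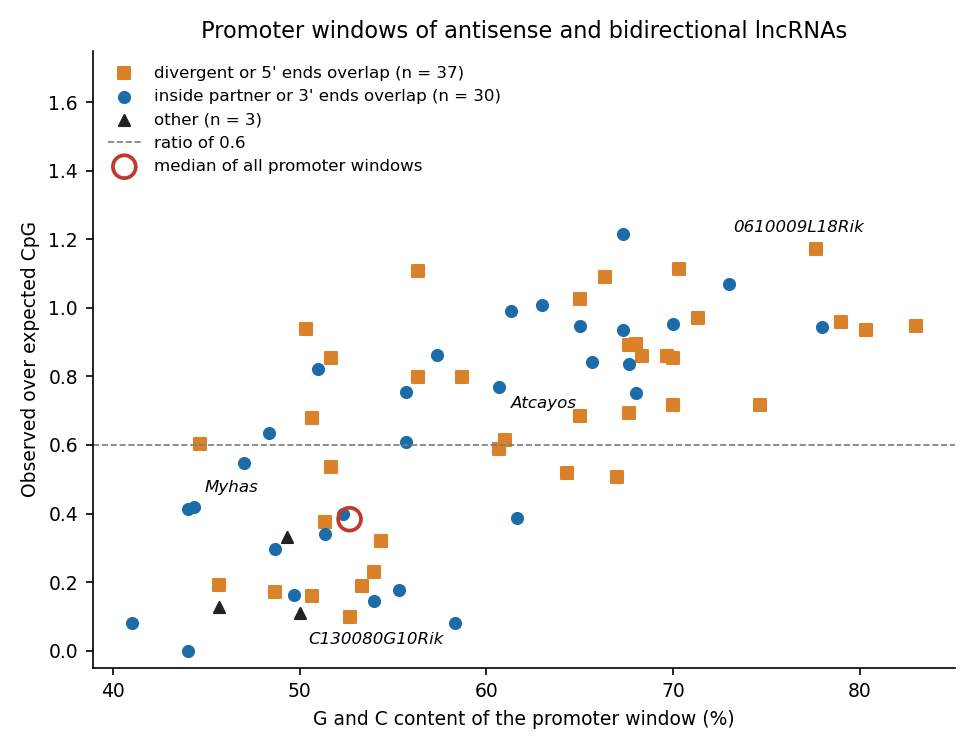
G and C content in percent against the observed over expected CpG ratio of the 70 promoter windows, with the position relative to the coding partner shown by colour and shape, the ratio of 0.6 as a dashed line and the median of all windows as an open ring. The points spread from under 0.2 to above 1.0, and 42 of 70 lie above the line.

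The plot of window composition shows CpG-rich and CpG-poor windows side by side. Myhas and C130080G10Rik, beside myosin and actin genes, have poor ones, and Atcayos and 0610009L18Rik rich ones. Of the motifs, GGGCGG was in 47.1% of the 70 windows against 35.7% of all windows and 47.8% of coding ones, and CCAAT in 45.7% against 37.4% and 37.8%. TATAAA was in 10% against 13.6% and 12.1%, CAGCTG in 12.9% against 16.3% and 15.7%, and CATTCC in 14.3% against 14.7% and 13.4%. Both strands were searched and no test was made.

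In scaled counts 2 of the 120 lncRNAs differed by 2-fold or more between the libraries. TPM was within 1.2-fold between them in 59 of 120 lncRNAs and higher in replicate 2 in 87. Counts scaled by TMM (trimmed mean of M values) give log2 ratios of replicate 2 over replicate 1 with a median of −0.04 (quartiles −0.20 and 0.19), and because TPM is scaled in another way a lncRNA can be a little higher in TPM and a little lower in this ratio. The median size of the log2 ratio was 0.20, against 0.15 over all 11903 genes tested at 1 TPM or more in both. An exact binomial test per gene, adjusted by Benjamini-Hochberg over all 15734 genes with a summed count of at least 20, called 2 of the 120 at an adjusted p under 0.05 and a fold of at least 2. The background called by this rule was 3.4% of all genes tested, 1.41% of those at 1 TPM or more in both, and 2.6% of lincRNA genes. At any fold 13 of 120 passed, against 31.5% of all genes tested. Among genes at 1 TPM or more in both, 4343 of 11903 passed, and 40 of 154 lincRNA genes. The lncRNAs were thinly counted, which limits what a counting test can pass, so their smaller share is not read as closer agreement. The test compares these libraries and covers counting error only.

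**Figure D4:**
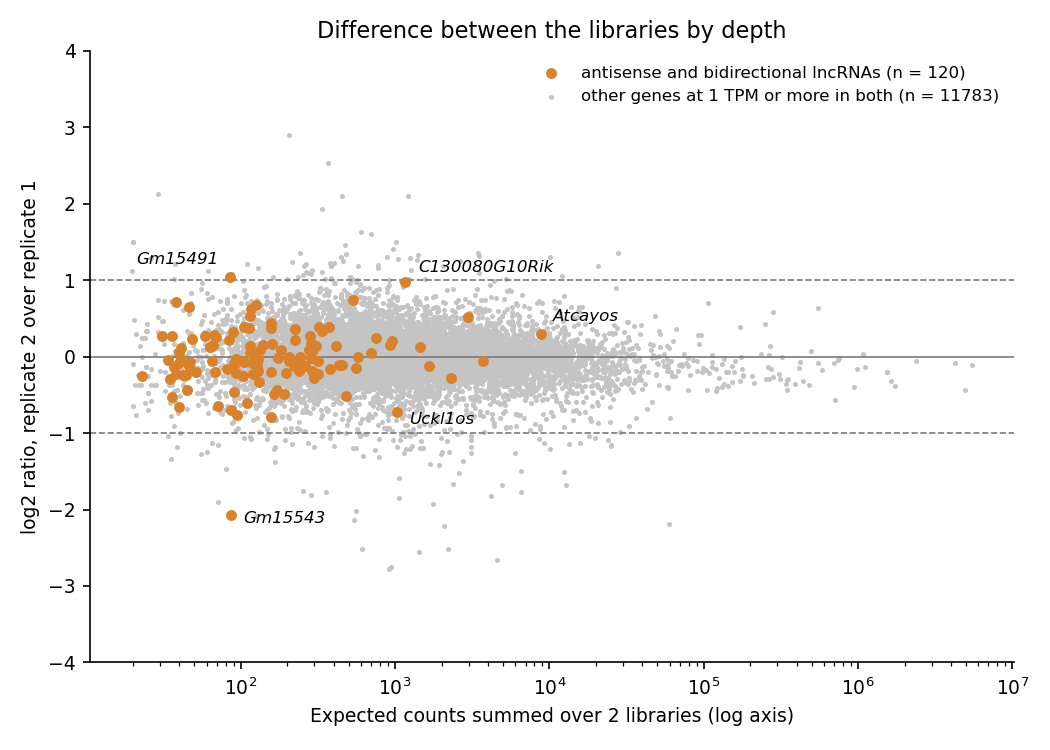
Log2 ratio of replicate 2 over replicate 1 (TMM-scaled counts) against the counts summed over both libraries on a log axis, for the 120 lncRNAs and for the other genes at 1 TPM or more in both, with dashed lines at 2-fold. Only Gm15543 and Gm15491 of the lncRNAs lie outside the dashed lines, and 1 gene lies outside the axis.

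As the plot of ratio against depth shows, the called genes were thinly counted. Gm15543 (chr6:145182275-145187630, plus strand) had 66 counts in replicate 1 and 20 in replicate 2, a log2 ratio of −2.07 (95% interval −2.89 to −1.35, exact binomial test, adjusted p = 6.1e-09). The direct quantification gave it only 4 and 3 counts, too few to be tested there. Gm15491 (chr19:45749508-45752310, plus strand) had 23 and 62 counts, a log2 ratio of 1.04 (95% interval 0.35 to 1.82, exact binomial test, adjusted p = 0.0087). Of its 751 exon bases, 551 are shared with Mgea5, an enzyme gene of sugar modification on the other strand whose own log2 ratio was −0.08. A further 84 are shared with Npm3, a histone chaperone gene on that strand whose log2 ratio was 0.54. Whether reads of these genes have a part in the difference was not tested.

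Apart from these, no lncRNA reached 2-fold in scaled counts. C130080G10Rik came nearest, with 329 and 835 counts and a log2 ratio of 0.97 (95% interval 0.79 to 1.16, exact binomial test, adjusted p = 1.0e-25), while its neighbour Actc1 had 0.14. In TPM, with 7.61 and 17.0, it did differ by more than 2-fold. Gm15816, which lies inside the muscle ankyrin gene Ank1, had 169 and 364 counts and a ratio of 0.73, while Ank1 had 0.19. Uckl1os had −0.72 while Uckl1 had −0.12. Gm29773 had 0.52 and its partner Nup133 −0.24, while Atcayos had 0.30 and Ndufb1-ps −0.28. Gm11716 (−0.52), AC157910.6 (−0.79), Hectd2os (0.39), Gm44732 (0.67) and Gm15787 (−0.76) made up the rest of the 13. A lncRNA and its partner lay on the same side of 0 in 50 of 105 pairs tested. Whether the higher fibro-adipogenic markers of replicate 2 have a part in these differences was not tested.

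Many of the lncRNAs have several annotated transcripts, and the deposited isoform percent gives each one's share of its gene. Of 76 with several, 62 had the same leading transcript in both libraries, and 47 had one that held over 50% in both. Ndufb1-ps-201 held 92.3% and 92.4% of its gene, Gm12224-201 95.2% and 97.7%, and Myhas-203 83.5% and 82.0%. Zfas1-205 held 72.4% and 67.4%, Uckl1os-201 69.3% and 53.0%, Atcayos-202 55.5% and 53.2%, and C130080G10Rik-202 55.2% and 55.1%. Tug1 was divided more evenly over 8 transcripts, with Tug1-203 at 37.2% and 47.5%. The leading transcript differed between the libraries in Hectd2os, Hoxa11os and Rab10os, where none held more than 41.8%.

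The reads were also quantified by the authors directly against transcripts, and this gave the set higher TPM but not more counts. The median log2 ratio of direct to gene-table TPM was 0.50, 1.42-fold higher over 119 lncRNAs, against 0.42 over 11600 genes at the same limit. For counts it was −0.05, against 0.08. Direct TPM was higher in both libraries in 104 of 120 and lower in both in 8, and 6 fell under 1 TPM in a library. By the direct values 160 genes would meet the limit, 114 of them among the 120.

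**Figure D5:**
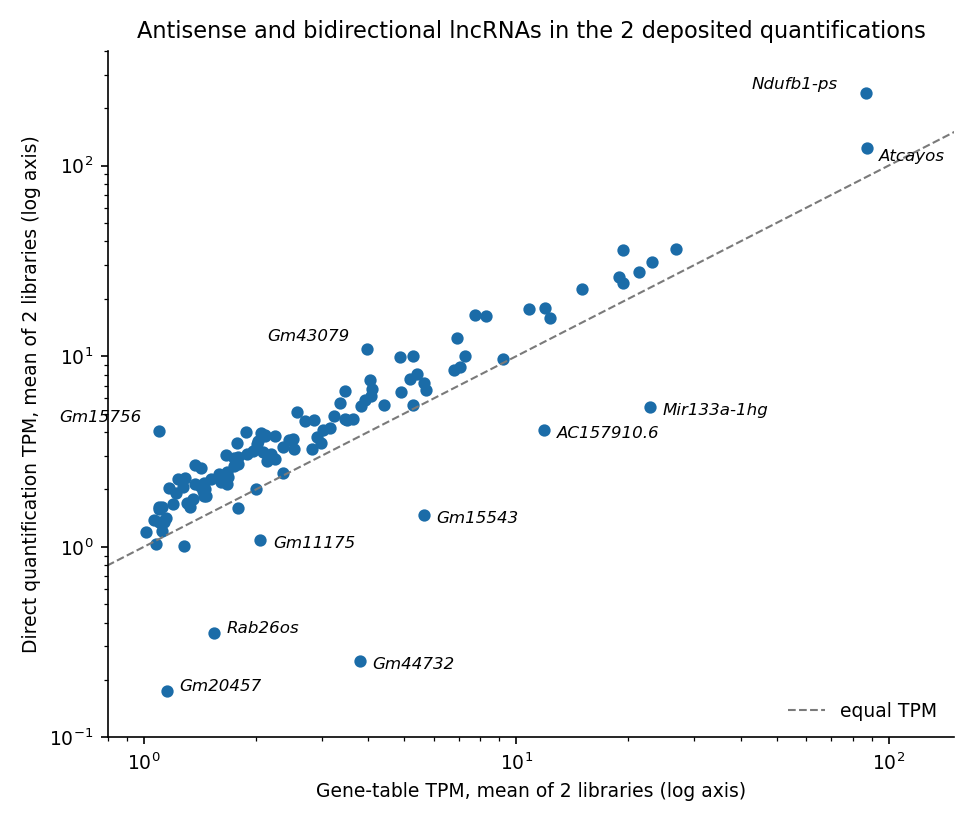
Mean TPM over 2 libraries from the direct quantification against that from the gene table, on log axes, for the 120 lncRNAs, with a dashed line of equal TPM. Most points lie a little above the line, and Mir133a-1hg, AC157910.6, Gm15543, Gm44732, Rab26os, Gm20457 and Gm11175 lie well below it.

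The plot of both quantifications shows how much single loci depend on this choice. Gm44732, of whose exon bases 98.4% lie in exons of the imprinted cell-cycle inhibitor Cdkn1c, had 2 and 2 direct counts against 41 and 85 in the gene table. Mir133a-1hg had 10 and 21 direct counts against 170 and 243. Gm20457 had 3 and 0 direct counts against 17 and 24, and Rab26os 1 and 2 against 11 and 12. In AC157910.6, the 201-base transcript AC157910.6-202 held 13.1 and 5.84 TPM of the gene's 15.8 and 7.97 TPM. The direct quantification gave that transcript 0 TPM in both libraries, and AC157910.6-201 4.81 and 3.39 TPM. The largest rise was in Gm15756, with a direct 3.13 and 5.01 TPM against 1.12 and 1.08 TPM in the gene table. Ndufb1-ps had a direct 246 and 234 TPM against 89.96 and 84.18 TPM in the gene table. Ndufb1-ps thereby stood above Atcayos in both libraries by the direct values.

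Airn, the antisense RNA of the imprinted Igf2r locus (chr17:12741311-12860136, plus strand), had 4.56 and 6.01 TPM from 119 and 202 counts, against 30.9 and 35.4 TPM for Igf2r. Airn has no exon base in a coding exon of the other strand, and it stood at 14.8% and 17.0% of Igf2r. Reads were not split by parental allele in these tables, so the imprint itself was not measured. Inside Alpk2, an alpha-kinase gene with 21.7 and 18.4 TPM, lie 2 lncRNAs of the set, AC157910.6 and AC157910.1, and AC157910.1 had 1.97 and 1.81 TPM. Gm12224 lies inside Acsl6, an acyl-CoA synthetase gene with 10.5 and 11.0 TPM, and stood above it. Tug1 stood above Morc2a, whose start it overlaps, with 14.2 and 15.8 TPM against 6.59 and 8.55 TPM. The intervals of Zfas1 and its partner Znfx1 overlapped, with 6.76 and 7.08 TPM against 6.38 and 7.07 TPM.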

How the data were processed

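Total RNA was measured in 2 libraries of 1 group, replicates 1 and 2. Each library came with a gene table and a transcript table based on transcriptome alignments, and with another transcript table made from the reads themselves. Per the file headers, the first pair holds expected counts, estimates that can be fractional, beside TPM. Further deposited columns give the isoform percent, posterior mean TPM, an interval, and the count's posterior standard deviation. The other deposited table holds estimated counts and TPM, summed here per gene and called direct. The notes that accompany the files name mm10 and GENCODE M21; aligner, quantifier and interval level were not given in the sources used here. C57BL/6J was the reference strain, so CAST/EiJ reads may have been lost, which was not measured.

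Partners were set from GENCODE M21 coordinates: the opposite-strand coding gene of greatest overlap, else the nearest divergent start within 1000 bases. Namesakes were matched by symbol or RefSeq synonym on the same chromosome. Expected counts were rounded and TMM factors (0.957 and 1.05) taken from edgeR 4.0.16; DESeq2 1.42.0 size factors were an alternative. A single library per side leaves the quasi-likelihood test of edgeR without residual degrees of freedom. Each gene with at least 20 summed counts therefore had a two-sided exact binomial test with Benjamini-Hochberg adjustment, and log2 ratios used a prior count of 0.5. The test was checked on simulated data. Other tools were Python 3.11.15 with scipy 1.17.1, numpy 2.4.6, pandas 2.3.3 and matplotlib 3.10.9, and R 4.3.3.

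The members, lists, tests and alternatives were chosen with earlier results of these data known. Named were all lncRNAs with a namesake, the 20 of highest TPM, those called between libraries, the 5 highest and 5 lowest ratios to a partner and the 5 largest changes between quantifications. Others, among them Gm15816, Airn, AC157910.1, Gm11175, Gm26740, 2610306M01Rik, 9530082P21Rik, Gm20457, the rest of the 13 that passed at any fold, and the genes near the TPM limit, were chosen after their values were seen. The result of 1 list of cell type markers is not reported here.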

Additional observations from a re-analysis of the deposited data

How the results depend on the processing

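The number of lncRNAs depended on the TPM limit: 201 genes met 0.5 TPM and 58 met 2 TPM in both libraries, against 120 at 1 TPM. With either library alone it was 132 and 138. The median level of 2.19 TPM became 3.40 TPM in the direct quantification and 4.47 TPM when scaled over nuclear protein-coding genes, and lay between 2.12 and 2.43 TPM with either library alone. Calls between libraries numbered 2 with DESeq2 size factors and without a filter on low counts, 3 with total counts, which adds C130080G10Rik, and 1, Gm15491, by direct counts. The median log2 ratio to the partner, −2.04, was −1.85 in the direct quantification, −4.07 in counts not divided by length, −1.10 for partners named by symbol and −2.41 with a divergent gene taken before an overlapping one, an alternative chosen after seeing the data. With either library alone it lay between −2.21 and −1.98. The median log2 ratio of direct to gene-table values, 0.50, was −0.050 for counts, which turns its direction, and was 0.50 with either library alone. Divergent starts numbered 13 within 1000 bases, 14 within 5000 and 10 within 200, and 62 leading transcripts in common became 57 by direct TPM. No paired analysis was possible because the series has 1 group only. Depth limits the 21 lncRNAs with under 50 summed counts, and a lncRNA with 0 counts allows up to 3.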

Other observations

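Most opposite-strand genes named after a coding gene stayed under 1 TPM in this muscle, also where the coding gene was active, as did most genes of these biotypes. GENCODE M21 holds 269 such genes among the biotypes studied, 148 of which had 0 counts in both libraries, against 1930 of all 3268. At 1 TPM or more in both libraries were 22 of the 269, against 120 of the 3268 (3.67%). The named genes were thus not more often silent than their class. Of the 144 whose namesake reached 1 TPM in both libraries, 15 reached it too and 129 did not. Strong namesakes face both detected and undetected genes. Among the detected were Tmem147os, Rab10os and Map2k3os, whose namesakes had means of 110, 100 and 74.9 TPM. The following were undetected. Igf2os had 0.39 and 1.06 TPM from 51 and 137 counts in replicates 1 and 2, opposite the growth factor gene Igf2 with a mean of 1388 TPM, and so missed the limit in replicate 1 only. H3f3aos had 0.91 and 0.72 TPM opposite the histone gene H3f3a with 215 TPM. Zeb2os, known for its part in the splicing of Zeb2, had 0.87 and 1.62 TPM opposite 24.6 TPM. Dnmt3aos, opposite the DNA methyltransferase gene Dnmt3a with 63.1 TPM, had 0 counts in both libraries. These genes were picked after their values were seen.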
